A study of Mus musculus with 18 samples.

Results

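A group of 18 genes was described that were higher in bone marrow derived macrophages (BMDMs) treated with CpG but were not raised by apoptotic cells (ACs), out of 20615 genes in the deposited table. The genes were chosen by their measured values: CPM, a gene's count in each 1000000 counts of its column, was formed, group means of 3 samples were taken, and 0.1 CPM was added. A gene was selected on a ratio of CpG to control of at least 2.5, a ratio of AC to control under 1.3 and a CpG mean of at least 2 CPM, each in both mouse strains. The 18 genes were Gpr31b, D330045A20Rik, Spn, Cebpd, Gm16638, Rap1gap2, Gm16712, Sla, Rgag4, Klra2, Ndrg1, RP24-252B21.3, Pik3cg, Slc6a9, St3gal3, Mras, Sik1 and 4833445I07Rik. Since these ratios chose the genes, the responses to CpG and ACs are given as descriptions without a test. Differences between the strains under the same condition were tested. So were differences in response between the strains, whose size the choice limits, since it set the same bounds in both.

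Estimated gene counts from RNA-seq were available for BMDMs of C57BL/6 (B6) and C57BL/6.NOD-Aec1Aec2 (SjSS) mice, with 3 samples in each of 6 groups. SjSS mice are a model of Sjögren's syndrome in which the intervals Idd3 (Aec1) and Idd5 (Aec2) of the NOD mouse were bred onto B6. In each strain, control BMDMs were untreated, CpG samples received 1 µM CpG oligodeoxynucleotide for 6 h, and AC samples received 5 thymocytes for each BMDM, killed with dexamethasone, for 2 h, after which the cells were washed and kept for 3 h by the labels (the study's methods give a longer time). All BMDMs came from mice of 7 to 12 weeks and were grown for 7 days with L929 supernatant as a source of M-CSF, so every group is a cultured macrophage and not a tissue cell. The labels and the methods do not settle whether CpG and AC samples were taken at the same time after the stimulus. Samples of a group came from separate mice, and it was not given if samples that share a number under different conditions shared a mouse.

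CpG DNA is sensed by TLR9, an endosomal receptor for unmethylated CpG motifs. TLR9 signals through MyD88, the IRAK kinases and TRAF6 to NF-kB, the MAP kinases and the interferon regulatory factors, and in macrophages this leads to cytokine, chemokine and interferon-stimulated gene expression. Apoptotic cells that macrophages engulf carry nucleic acids into the same compartments, while receptors of engulfment such as Mer normally restrain inflammatory genes.

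Total counts ranged from 30688336 to 57139662 per sample, with a median of 47912525. Of 10 macrophage markers, all were in the table and none was at 0 in every sample, with a summed level of 16160 to 23440 CPM over the 18 samples. With CpG that sum was 21280 to 23440 CPM in B6 and 17960 to 18660 CPM in SjSS. The 7 fibroblast markers summed to 39.4 to 151 CPM in B6 samples and to 156 to 257 CPM in SjSS samples, so this sum separated the strains. The 10 T cell markers, which could mark leftover thymocyte RNA, summed to 4.48 to 15.2 CPM. The paper states that the thymocyte genes Cd3 and Trac could not be detected in its BMDMs. The marker list also holds Cd4, which the paper names among genes upregulated by ACs in SjSS BMDMs. How much of the sum was thymocyte RNA was not tested. With ACs this sum was 4.475 to 4.835 CPM in B6 and 11.25 to 15.18 CPM in SjSS, so it separated the strains there. In controls it was 8.645 to 10.88 CPM in B6 and 11.24 to 13.2 CPM in SjSS. The 6 B cell markers summed to 9.68 to 31.5 CPM, and the 6 dendritic cell markers to 1.33 to 3.50 CPM. Of 8 neutrophil markers 5 were in the table, and they summed to 10.6 to 12.8 CPM with CpG against 3.90 to 5.71 CPM in control B6 BMDMs. Of 5 mast cell and basophil markers 2 were in the table and summed to at most 1.33 CPM. The part of these other cell types in the results below was not tested, and in bulk RNA fewer cells of a type and less RNA per cell cannot be told apart.

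In both strains, genes raised by CpG without being raised by ACs were few. Of 364 genes with a CpG to control ratio of at least 2.5 and a CpG mean of at least 2 CPM in both strains, 284 (78.0%) had an AC to control ratio of 1.3 or more in both strains. Another 44 stayed under 1.3 in B6 alone, 18 stayed under it in SjSS alone, and the 18 genes described here (4.95%) stayed under it in both. Just inside the CpG threshold lay 4833445I07Rik at 2.54, Sik1 at 2.57 and Mras at 2.61 in the strain with the smaller ratio, and just outside lay Mesdc1 at 2.48, Eif4g2 at 2.46 and Ebi3 at 2.45. By the larger AC ratio, Slc6a9 at 1.29, 4833445I07Rik at 1.28 and Cebpd at 1.27 lay just inside and Pilrb1 at 1.31, Itgal at 1.31 and Tnfrsf14 at 1.32 just outside. By CpG level, 4833445I07Rik at 2.88 CPM, Slc6a9 at 3.65 CPM and RP24-252B21.3 at 4.43 CPM lay inside, and Mgarp at 1.22 CPM, Hes7 at 0.691 CPM and Pdcd1lg2 at 0.679 CPM outside.

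How the libraries are scaled bears on what "not raised by ACs" means. The trimmed mean of M values (TMM) method, which aligns the bulk of genes between libraries, gave SjSS AC libraries factors of 0.833 to 0.838, against 1.10 to 1.13 for SjSS controls, 1.06 to 1.09 for B6 controls and 1.02 to 1.04 for B6 AC libraries. By column totals, the median tested gene differed from control with ACs by -0.43 on the log2 scale in SjSS and by -0.07 in B6, and with CpG by -0.14 in SjSS and by -0.22 in B6. With TMM these medians were -0.02, 0.00, -0.01 and -0.04. So a gene level with control by column totals in SjSS AC samples lay above the median gene. By column totals, 15 of the 18 genes had an AC mean below control in SjSS and 7 had one in B6. With TMM the fitted log2 change was below 0 for 5 genes in SjSS and 6 in B6. Under the same thresholds with TMM scaled totals there were again 18 genes, but 12 of them shared: Cebpd, Klra2, Slc6a9, St3gal3, Sik1 and 4833445I07Rik left the group, and other genes took their places.

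**Figure D1:**
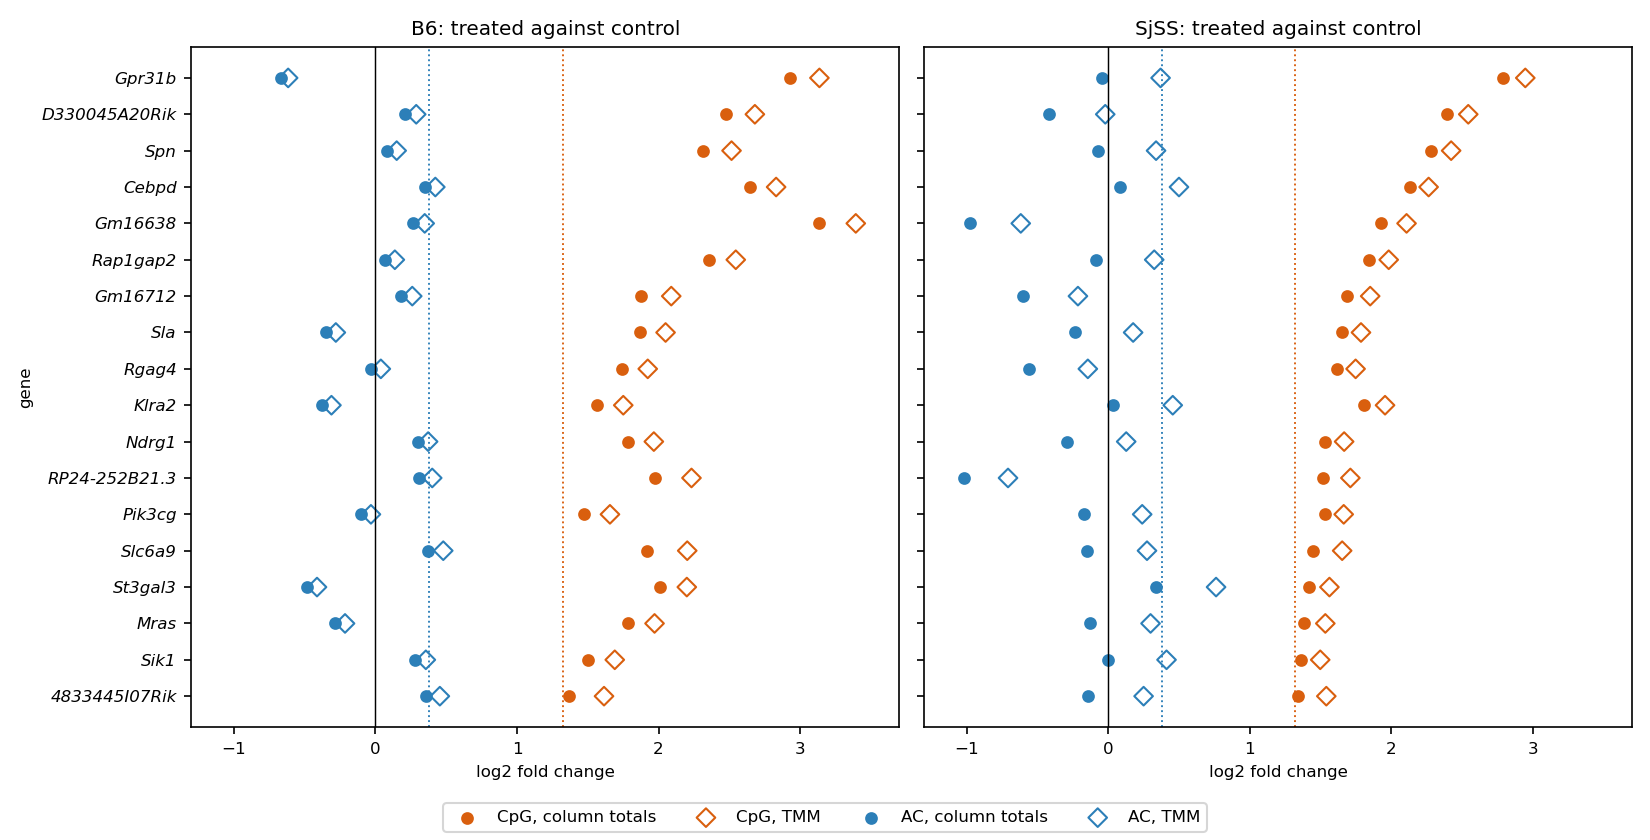
Log2 fold change of each of the 18 genes with CpG (orange) and with ACs (blue) against control, in B6 (left) and SjSS (right), by column totals (filled circles) and in the TMM scaled edgeR fit (open diamonds); dotted lines mark the thresholds of the choice. In SjSS the AC values by column totals lie mostly below 0, and the TMM values mostly above it, with 15 and 5 of 18 genes below 0.

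The CpG samples lay wholly above the control samples for all 18 genes in both strains, where 20.8% of the 15789 genes tested did so in B6 and 22.9% in SjSS, and this was fixed by the choice as far as the means go. The median CpG ratio of the 18 genes was 3.73 in B6 and 3.10 in SjSS, against 4.83 and 4.46 for the other 346 genes raised by CpG in both strains. For ACs, B6 samples lay wholly below control for 3 genes (Sla, Klra2 and St3gal3; 30.2% of all tested genes) and wholly above it for 5 (Cebpd, Gm16712, Slc6a9, Sik1 and 4833445I07Rik; 19.9%). In SjSS 8 genes lay wholly below control (59.4% of all tested genes) and 1, St3gal3, wholly above it (14.1%). These counts describe the chosen genes, and they and all levels in CPM below use column totals.

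**Figure D2:**
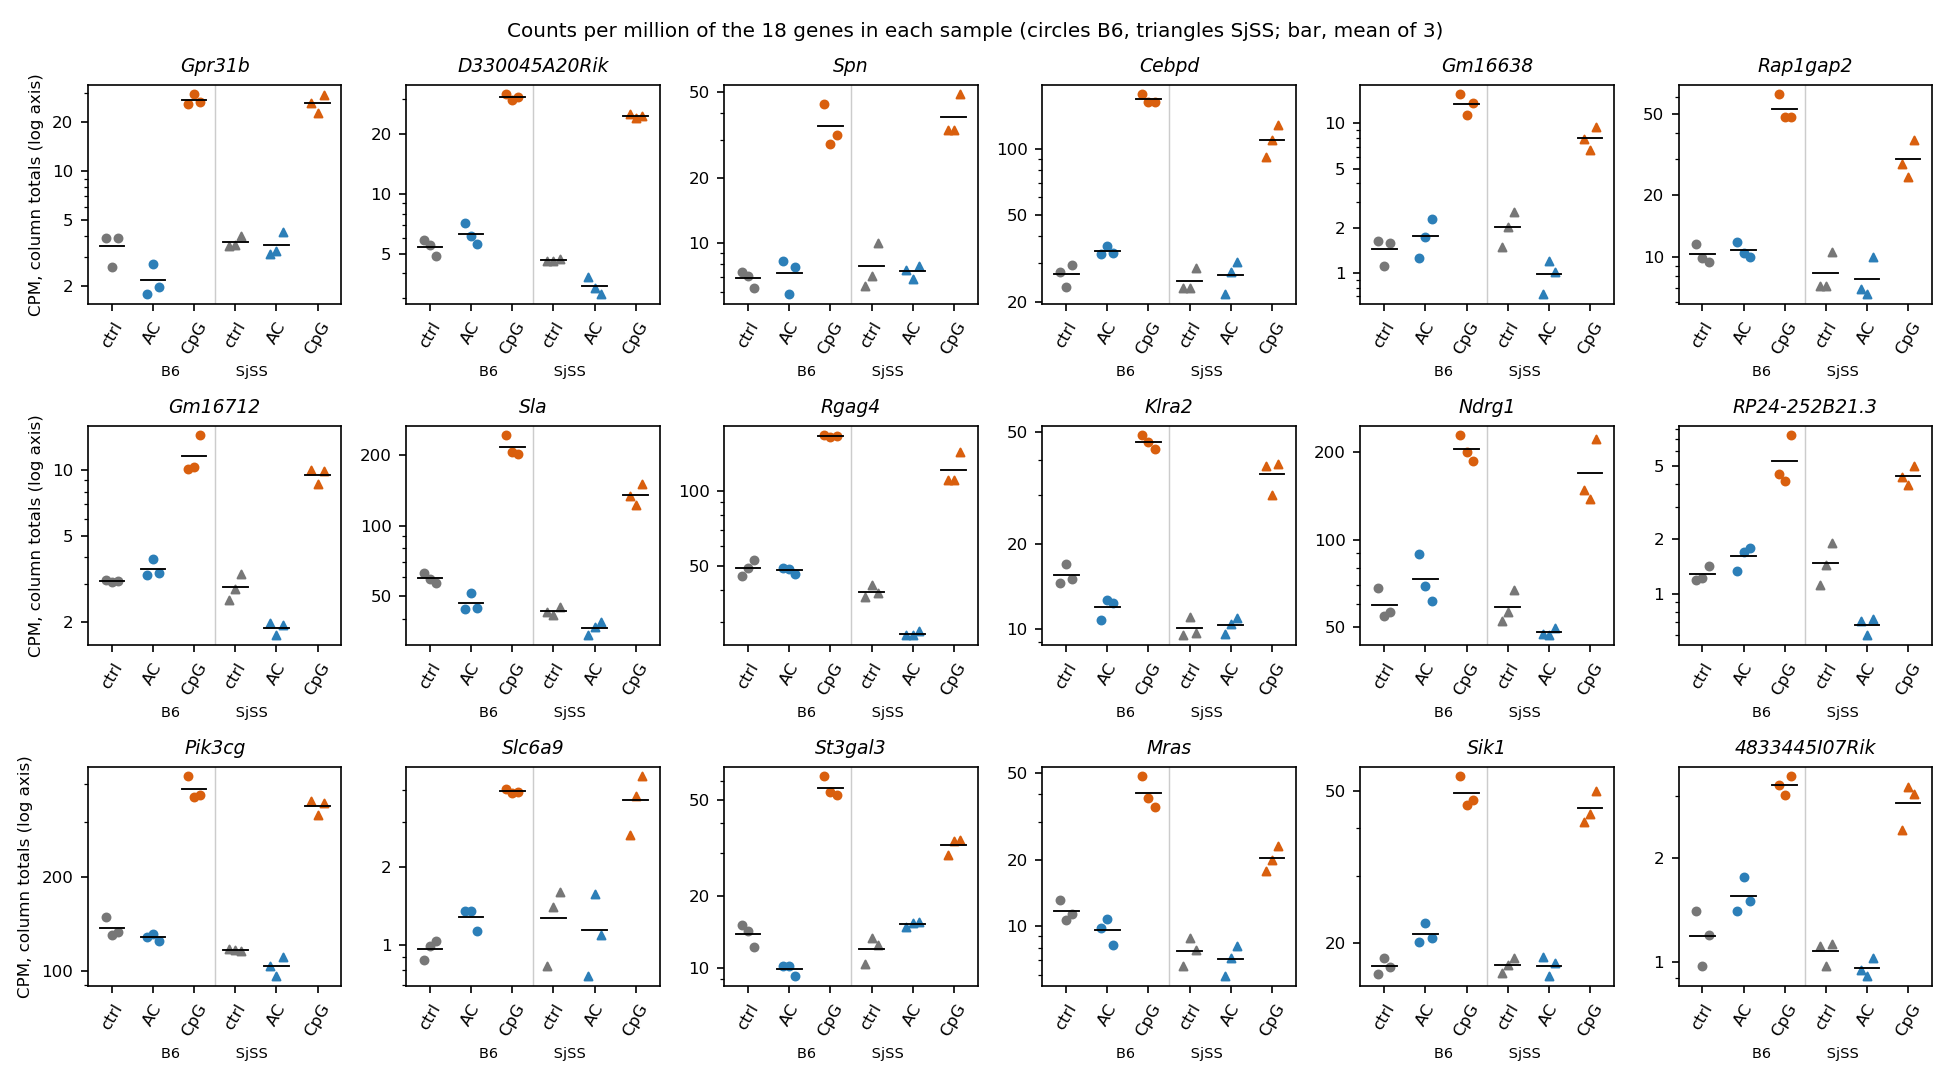
CPM by column totals (log axis) of the 18 genes in every sample, with B6 as circles and SjSS as triangles in the control (grey), AC (blue) and CpG (orange) groups; bars are means of 3. In every panel the CpG samples lie above the control and AC samples of their strain, and for Mras, St3gal3 and Sla the 3 SjSS CpG samples lie below the 3 B6 CpG samples.

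The first set of genes act at the cell surface or just beneath it. Gpr31b (chromosome 17, 13051321 to 13052280, minus strand, mm10), a G protein-coupled receptor for a hydroxy fatty acid, had the largest CpG ratio in the strain where it was smaller. Its levels in B6 were 3.92, 2.59 and 3.92 CPM in control, 1.77, 2.72 and 1.96 CPM with ACs and 25.5, 29.3 and 26.5 CPM with CpG. In SjSS they were 3.48, 3.52 and 4.01 CPM, 3.14, 3.28 and 4.26 CPM and 26.1, 22.6 and 28.99 CPM in the same order. The CpG ratio was 7.61 in B6 and 6.90 in SjSS, and the strains overlapped with CpG. The AC ratio was 0.630 in B6, where 2 of 3 AC samples lay below every control sample, and 0.970 in SjSS. RefSeq gives a promoter for Gpr31b. Its upstream stretch outside annotated exons (GRCm38.p6, chr17:13052297-13052530, minus strand) is shown because it holds the letters GGGNNTTCC, a short form of the NF-kB motif, in capitals at position -230 from the gene start.
Gpr31b: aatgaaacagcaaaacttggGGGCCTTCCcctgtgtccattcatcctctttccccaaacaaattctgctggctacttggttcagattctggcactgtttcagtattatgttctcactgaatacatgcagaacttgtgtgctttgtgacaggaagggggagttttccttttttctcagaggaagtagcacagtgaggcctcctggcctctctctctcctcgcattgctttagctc

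Klra2 (chromosome 6, 131219223 to 131247362, minus strand), a lectin-like receptor of the Ly49 family, had the opposite strain order from most of the genes in its CpG ratio. Its levels in B6 were 14.6, 17.04 and 15.03 CPM in control, 10.7, 12.7 and 12.3 CPM with ACs and 48.7, 45.99 and 43.8 CPM with CpG, so that all AC samples lay below all controls. In SjSS control samples had 9.48, 11.1 and 9.64 CPM, AC samples 9.59, 10.4 and 10.9 CPM and CpG samples 37.95, 29.9 and 38.6 CPM. The CpG ratio was 2.96 in B6 and 3.50 in SjSS, and the AC ratio 0.768 and 1.02. Klra2 and Pik3cg were the 2 genes with a larger CpG ratio in SjSS than in B6. The 250 bases upstream of Klra2 (RefSeq, GRCm38.p6, chr6:131247363-131247612, minus strand) are shown for the STAT-type motif TTCNNNGAA, in capitals.
Klra2: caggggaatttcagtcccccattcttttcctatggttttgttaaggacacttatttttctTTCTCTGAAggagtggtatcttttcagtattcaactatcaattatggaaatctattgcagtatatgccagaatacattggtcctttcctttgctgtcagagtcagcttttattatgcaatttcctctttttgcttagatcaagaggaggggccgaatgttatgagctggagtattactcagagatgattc

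Spn (chromosome 7, 127132232 to 127137823, minus strand) encodes CD43, a heavily sialylated surface protein of leukocytes. In B6 it stood at 7.403, 7.06 and 6.25 CPM in control, 8.29, 5.84 and 7.8 CPM with ACs and 44.01, 28.7 and 31.7 CPM with CpG. SjSS samples gave 6.38, 7.104 and 10.01 CPM, 7.55, 6.89 and 7.89 CPM and 33.3, 33.4 and 48.6 CPM. AC and control samples overlapped in both strains, and B6 and SjSS overlapped under every condition. Its CpG ratio was 4.98 in B6 and 4.86 in SjSS. Spn lies within 250 kb of Itgal, the integrin alpha L gene, which had CpG ratios of 3.65 and 3.08 and missed the choice with an AC ratio of 1.31 in SjSS.

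Sla (chromosome 15, 66780819 to 66831829, minus strand) encodes the Src-like adaptor protein, which dampens antigen and growth factor receptor signalling. Control, AC and CpG samples of B6 had 62.9, 58.99 and 56.6 CPM, 43.9, 51.3 and 44.6 CPM and 243, 207 and 202 CPM. Those of SjSS had 42.7, 41.5 and 44.9 CPM, 33.95, 36.9 and 38.6 CPM and 134, 122 and 151 CPM. By column totals, AC samples lay wholly below control in both strains, and under each condition SjSS samples lay wholly below B6 samples. With TMM the AC log2 change was -0.28 in B6 and 0.175 in SjSS. The strain difference with ACs was then -0.053 (edgeR, adjusted p = 0.648). Ratios of CpG to control were 3.65 in B6 and 3.15 in SjSS, and of AC to control 0.783 and 0.848. Sla lies within Tg, the thyroglobulin gene on the opposite strand, whose mean was at most 0.173 CPM in any group.

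Pik3cg (chromosome 12, 32173473 to 32208659, minus strand) encodes p110 gamma, the catalytic subunit of the PI3 kinase that G protein-coupled receptors activate in leukocytes. Its B6 levels were 149, 131 and 133 CPM in control, 128, 132 and 125 CPM with ACs and 421.5, 362 and 366.5 CPM with CpG. Its SjSS levels were 118, 117 and 116 CPM, 103.5, 96.2 and 111 CPM and 351, 317 and 348 CPM. The CpG ratio was 2.78 in B6 and 2.90 in SjSS. By column totals AC samples lay below control samples in SjSS but overlapped them in B6. With TMM the AC log2 change of Pik3cg was 0.239 in SjSS and -0.032 in B6.

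A second set regulates small GTPases. Mras (chromosome 9, 99385420 to 99437381, minus strand), a Ras-related GTPase, had 13.1, 10.7 and 11.4 CPM in B6 controls, 9.82, 10.8 and 8.19 CPM with ACs and 48.1, 38.6 and 34.9 CPM with CpG. In SjSS the levels were 6.58, 8.86 and 7.81 CPM, 5.93, 7.19 and 8.15 CPM and 17.9, 20.03 and 23.2 CPM. By column totals SjSS samples lay below B6 samples under all 3 conditions, and the highest SjSS CpG sample was below the lowest B6 CpG sample. With TMM the strain difference of Mras with ACs was -0.137 on the log2 scale (edgeR, adjusted p = 0.481). Rap1gap2 (chromosome 11, 74383356 to 74610915, minus strand), which switches off the GTPase Rap1, stood at 11.5, 9.83 and 9.44 CPM, 11.8, 10.4 and 9.94 CPM and 62.1, 47.9 and 48.2 CPM in B6 control, AC and CpG samples. The SjSS samples had 7.15, 7.17 and 10.5 CPM, 6.95, 6.54 and 9.93 CPM and 28.4, 24.4 and 37.0 CPM. Control and AC samples of Rap1gap2 overlapped in both strains, and its CpG ratio was 5.11 in B6 and 3.59 in SjSS.

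Another set acts in the nucleus or on transcription. Cebpd (chromosome 16, 15887286 to 15891031, plus strand), the transcription factor C/EBP delta of inflammatory and acute phase responses, was 1 of 2 of the 18 genes on any of the 18 pathway lists. B6 control, AC and CpG samples had 27.2, 23.4 and 29.5 CPM, 32.99, 35.8 and 33.5 CPM and 177, 163 and 163.5 CPM, with all AC samples above all controls. SjSS samples had 23.2, 23.2 and 28.6 CPM, 21.6, 27.3 and 30.5 CPM and 91.6, 110.0 and 128 CPM, with AC samples overlapping controls. The CpG ratio was 6.26 in B6 and 4.38 in SjSS, and the B6 AC ratio of 1.27 was just under the ceiling. On the TMM scale the AC log2 change of Cebpd was 0.42 in B6 and 0.50 in SjSS. Its 3' part overlaps Spidr on the opposite strand, which had 14.4 CPM in B6 controls and 17.95 CPM with CpG. Other C/EBP genes had other values: the CpG difference of Cebpa was -2.34 in B6 and -1.87 in SjSS, and that of Cebpb was 0.78 and 1.08 (log2, TMM).

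Sik1 (chromosome 17, 31844248 to 31855792, minus strand), a salt-inducible kinase that acts on CREB co-activators, was at 16.6 to 18.2 CPM in B6 controls and 16.7 to 18.2 CPM in SjSS controls. With CpG it reached 54.6, 45.96 and 47.5 CPM in B6 and 41.5, 43.7 and 49.9 CPM in SjSS. AC samples of B6, at 20.1, 22.6 and 20.6 CPM, lay above all controls, and those of SjSS, at 18.3, 16.3 and 17.7 CPM, overlapped them. D330045A20Rik (chromosome X, 139480367 to 139554582, plus strand), named Radx in RefSeq and known for binding single-stranded DNA at replication forks, had 5.86, 5.58 and 4.86 CPM in B6 controls, 7.16, 6.18 and 5.59 CPM with ACs and 31.8, 29.8 and 30.7 CPM with CpG. In SjSS it had 4.64, 4.63 and 4.71 CPM, 3.83, 3.38 and 3.14 CPM and 25.4, 24.3 and 24.8 CPM, so that SjSS samples lay below B6 samples in each condition. The 250 bases upstream of the RefSeq start (GRCm38.p6, chrX:139480117-139480366, plus strand) are shown because they hold an E-box, CACGTG, and the STAT-type motif, both in capitals.
D330045A20Rik: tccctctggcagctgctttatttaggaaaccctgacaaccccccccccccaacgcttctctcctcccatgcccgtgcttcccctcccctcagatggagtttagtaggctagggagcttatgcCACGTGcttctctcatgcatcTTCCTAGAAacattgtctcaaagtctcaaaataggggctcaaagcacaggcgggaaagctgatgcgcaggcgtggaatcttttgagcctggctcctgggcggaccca

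A further set covers sialylation, transport and stress. St3gal3 (chromosome 4, 117932154 to 118134914, minus strand), a sialyltransferase of glycoproteins, had AC samples wholly below control in B6 and wholly above it in SjSS, by column totals. B6 samples had 15.1, 14.2 and 12.3 CPM in control and 10.2, 10.3 and 9.28 CPM with ACs, all lower, while SjSS samples had 10.4, 13.3 and 12.5 CPM in control and 14.8, 15.4 and 15.6 CPM with ACs, all higher. With CpG the levels were 62.5, 53.9 and 52.3 CPM in B6 and 29.5, 33.8 and 33.95 CPM in SjSS, without overlap. CpG gave a ratio of 4.03 and 2.68 and ACs one of 0.716 and 1.26. Its upstream 250 bases (RefSeq, GRCm38.p6, chr4:118134947-118135196, minus strand) are shown as those of the gene with the largest strain difference in the AC response among the 18 with TMM (by column totals RP24-252B21.3 and Gm16638 had larger ones), and held none of the 7 motifs searched.
St3gal3: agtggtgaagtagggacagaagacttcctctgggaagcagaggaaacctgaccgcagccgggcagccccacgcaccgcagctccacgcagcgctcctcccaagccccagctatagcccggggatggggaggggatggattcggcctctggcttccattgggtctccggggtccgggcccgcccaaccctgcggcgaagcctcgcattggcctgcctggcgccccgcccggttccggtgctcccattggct

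Slc6a9, the glycine transporter GlyT1 (chromosome 4, 117834506 to 117875198, plus strand), lies 56955 bases from St3gal3. It was low, at 0.875 to 1.04 CPM in B6 controls and 0.831 to 1.60 CPM in SjSS controls, and reached 3.87 to 4.04 CPM and 2.67 to 4.50 CPM with CpG. Its SjSS AC samples, at 0.757, 1.58 and 1.09 CPM, overlapped the controls. B4galt2 and Ccdc24 overlap it on the opposite strand with means of at most 1.46 and 0.228 CPM. Ndrg1 (chromosome 15, 66929321 to 66969640, minus strand), a gene known to rise in hypoxia and stress, lies 97491 bases from Sla. Its levels were 67.8, 54.5 and 56.2 CPM in B6 controls, 89.4, 69.4 and 61.2 CPM with ACs and 228.5, 201 and 186 CPM with CpG. In SjSS they were 52.2, 56.2 and 67.2 CPM, 47.1, 46.8 and 49.7 CPM and 148, 138 and 222 CPM, with 1 CpG sample far above the other 2. St3gal1, another sialyltransferase gene near Ndrg1, had CpG ratios of 3.46 and 3.15 but AC ratios of 1.97 and 2.47.

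Rgag4 (chromosome X, 102066544 to 102071304, minus strand), named Rtl5 in RefSeq, is a gene derived from a retrotransposon gag sequence. B6 samples had 45.9, 49.1 and 53.1 CPM in control, 49.3, 48.9 and 46.6 CPM with ACs and 166, 165 and 165 CPM with CpG. SjSS samples had 37.6, 42.04 and 39.1 CPM, 26.6, 26.5 and 27.5 CPM and 111, 111 and 142.5 CPM. SjSS samples lay below B6 samples in every condition. Rgag4 lies within Nhsl2, on the opposite strand, and whether the counting used strand is not given in the sources used here. Nhsl2 had B6 means of 12.8 CPM in control, 5.72 CPM with ACs and 9.42 CPM with CpG, and SjSS means of 16.3, 3.55 and 10.6 CPM. With CpG it was lower where Rgag4 was higher. With ACs both genes were lower than control in SjSS, while in B6 Nhsl2 was lower and Rgag4 overlapped control. The part of shared reads was not tested.

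The last 4 genes are not protein coding: an antisense gene, 2 long intergenic RNAs and a transcript of the class TEC, which awaits experiment. Over the whole deposit 27.2% of genes were not protein coding, as were 9.54% of the other 346 genes raised by CpG. Gm16638 (chromosome 7, 83597048 to 83631880, minus strand) had the largest CpG ratio in B6, 8.77, against 3.80 in SjSS. B6 samples had 1.65, 1.12 and 1.6 CPM, 1.26, 1.75 and 2.297 CPM and 15.6, 11.3 and 13.7 CPM in control, AC and CpG. SjSS samples had 1.501, 2.04 and 2.57 CPM, 0.723, 1.21 and 1.02 CPM and 7.91, 6.62 and 9.51 CPM, and here all AC samples were below all controls. It overlaps Tmc3 over 28567 bases on the opposite strand, and Tmc3 had CpG ratios of 20.1 in B6 and 19.4 in SjSS and AC ratios of 1.46 and 2.23. Without strand, reads from sequence that the pair shares could be counted for either gene, and shared exons were not measured.

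RP24-252B21.3 (chromosome 7, 83633371 to 83635817, plus strand) lies 1490 bases from Gm16638 and wholly within Stard5 on the same strand. Its levels were 1.19, 1.22 and 1.43 CPM, 1.34, 1.7 and 1.78 CPM and 4.501, 4.14 and 7.33 CPM in B6 control, AC and CpG samples. In SjSS they were 1.11, 1.43 and 1.89 CPM, 0.714, 0.596 and 0.729 CPM and 4.36, 3.96 and 4.97 CPM. SjSS AC samples lay wholly below control. Stard5, a lipid transfer gene, went from 43.2 to 196 CPM in B6 and from 44.0 to 131 CPM in SjSS with CpG, with AC ratios of 1.77 and 1.59, and the authors' counting could split reads between them. So Tmc3 and Stard5 of this locus were higher with CpG too, and the counts of the 2 chosen genes are uncertain.

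Gm16712 (chromosome 17, 55954771 to 55959381, minus strand) had 3.14, 3.07 and 3.09 CPM in B6 controls and 10.1, 10.4 and 14.5 CPM with CpG, and 2.54, 2.84 and 3.34 CPM and 10.01, 8.696 and 9.95 CPM in SjSS. Its AC samples, 3.29, 3.92 and 3.38 CPM in B6, lay above control, and 1.98, 1.74 and 1.93 CPM in SjSS, below it. It overlaps Ebi3, a subunit of interleukin 27 and 35, over 2251 bases on the opposite strand, and Ebi3 had ratios of 3.00 and 2.45 with CpG and 1.11 and 1.26 with ACs. Without strand, reads from sequence that Gm16712 and Ebi3 share could be counted for either gene. 4833445I07Rik (chromosome 9, 108567533 to 108569174, plus strand) had the lowest CpG ratios of the 18 genes, at 2.58 in B6 and 2.54 in SjSS, with 0.974 to 1.40 CPM in B6 controls, 3.04 to 3.42 CPM with CpG, 0.978 to 1.13 CPM in SjSS controls and 2.40 to 3.20 CPM with CpG.

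By position the 18 genes formed 3 pairs within 250 kb: Gm16638 with RP24-252B21.3, Sla with Ndrg1, and Slc6a9 with St3gal3. None lay on chromosomes 1 or 3, where the Idd5 and Idd3 intervals lie. Of 111 other genes within 250 kb of any of the 18 and at 2 CPM or more in a group, 7 (6.31%) also passed the CpG thresholds in both strains, against 364 of 11988 (3.04%) of all genes at that level. These were Sod2 near Gpr31b, Gm44729 and Itgal near Spn, Tmc3 and Stard5, Magohb near Klra2 and St3gal1 near Ndrg1. Sod2, the mitochondrial superoxide dismutase, had CpG ratios of 9.97 and 13.3 but AC ratios of 3.28 and 7.49, where Gpr31b had 0.630 and 0.970.

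RefSeq promoters, 17 in all, were given for 11 of the 18 genes. The matches are counted by gene and the shares by promoter, so the counts and shares are not like for like. In the 250 bases upstream, on both strands, GGGNNTTCC was found for Gpr31b and Gm16712 and in 4.98% of all 32851 promoters. The whole upstream window of Gm16712 lay within annotated exons. TTCNNNGAA was found for D330045A20Rik and Klra2 and in 7.02% of all promoters, and CACGTG for D330045A20Rik and in 6.02%. No upstream window of the 11 genes held the full NF-kB consensus (3.90% of all promoters), the AP-1 motif TGACTCA (4.46%), the CRE TGACGTCA (1.55%) or the interferon response core GAAANNGAA (7.13%). Matches to the short and the full NF-kB motif can overlap. These are matches of letters in a window and not measured sites.

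The question of whether the strains differ was then put to the edgeR quasi-likelihood fit, in which all 18 genes passed the filter on low counts among 15789. With CpG, 17 of the 18 genes (94.4%) were lower by the fitted value in SjSS BMDMs than in B6, the exception being Spn. So were 48.5% of all genes tested and 84.1% of the other 346 genes raised by CpG in both strains. The median log2 difference of the 18 genes was -0.39 against 0.01 for all genes tested. At an adjusted p under 0.05, 11 genes were lower and 0 higher, where 9.57% of all genes tested were lower and 10.2% higher. Of the other 346 genes raised by CpG in both strains, 53.5% were lower and 3.18% higher, with a median of -0.37, so a lower level in CpG treated SjSS BMDMs was not particular to the 18 genes. The 11 genes were Mras (-1.09 ± 0.14, adjusted p = 2.16e-05), Rap1gap2 (-0.91 ± 0.16, adjusted p = 0.000604), St3gal3 (-0.89 ± 0.09, adjusted p = 1.98e-06), Gm16638 (-0.85 ± 0.20, adjusted p = 0.00565), Sla (-0.77 ± 0.09, adjusted p = 4.52e-06), Cebpd (-0.71 ± 0.12, adjusted p = 0.000247), Rgag4, Klra2, D330045A20Rik, Gm16712 and Pik3cg. The last 5 differed by -0.54, -0.47, -0.40, -0.38 and -0.27 on the log2 scale. With column totals in place of TMM, 9 were lower, without Gm16712 and Pik3cg. Gm16712 also lost its call without B6 CpG replicate 3 or SjSS CpG replicate 1, 2 or 3 (-0.23, -0.42, -0.31 and -0.41), and Pik3cg without B6 CpG replicate 1 or SjSS CpG replicate 2 (-0.19 and -0.22).

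None passed the study's fold threshold, a log2 change over 1.3 in size, in this comparison, where 2.61% of all genes tested did in either direction. By edgeR 13 genes were lower at an unadjusted p under 0.05 and 0 higher, and DESeq2 called 0 with the threshold and 12 lower without it. The share of all genes at an unadjusted p or by DESeq2 is not given, here or for the other comparisons below. The macrophage marker sum was lower and the fibroblast marker sum higher in the SjSS CpG samples, by the ranges given above. The neutrophil marker sum was lower too, at 5.78 to 6.08 CPM against 10.6 to 12.8 CPM in B6 CpG samples. The part of these markers in the strain differences was not tested.

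Without treatment, 13 genes (72.2%) were lower and 5 higher in SjSS by the fitted value, with a median log2 difference of -0.16. Lower by the fitted value were also 51.6% of all tested genes and 69.9% of the other genes raised by CpG. At an adjusted p under 0.05, 5 were lower, where 10.6% of all tested genes were lower, and 0 higher, where 9.04% were higher. These were Klra2 (-0.68 ± 0.11, adjusted p = 0.000276), Mras (-0.65 ± 0.15, adjusted p = 0.00575), Sla (-0.51 ± 0.09, adjusted p = 0.000573), Rgag4 (-0.36 ± 0.08, adjusted p = 0.00503) and Pik3cg (-0.28 ± 0.07, adjusted p = 0.00911). All 5 were also among the 11 lower with CpG. Of the other genes raised by CpG 142 of 346 were lower in untreated SjSS BMDMs and 38 higher. None of the 18 passed the fold threshold (2.01% of all tested genes did), 7 were lower and 0 higher at an unadjusted p under 0.05, and DESeq2 called 0 with the threshold and 5 lower without it. Pik3cg lost its call without B6 control replicate 1, at -0.23 with an adjusted p of 0.0552. In these control samples the macrophage markers summed to 17850 to 19120 CPM in SjSS against 20560 to 21680 CPM in B6, the fibroblast markers to 184 to 257 CPM against 48.4 to 151 CPM and the neutrophil markers to 2.92 to 3.30 CPM against 3.90 to 5.71 CPM, and their part was not tested.

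With ACs, the genes split. Gpr31b (1.02 ± 0.18, adjusted p = 0.000104) and St3gal3 (0.92 ± 0.10, adjusted p = 3.66e-07) were higher in SjSS, where 24.0% of all tested genes were higher. RP24-252B21.3 (-0.94 ± 0.24, adjusted p = 0.00351), Gm16712 (-0.61 ± 0.14, adjusted p = 0.00177), D330045A20Rik (-0.57 ± 0.10, adjusted p = 8.45e-05) and Rgag4 (-0.55 ± 0.08, adjusted p = 2.65e-05) were lower, where 25.5% of all genes were. The median of the 18 genes was -0.10, against 0.88 for the other genes raised by CpG, of which 74.9% were higher in SjSS with ACs. The AC ceiling of the choice bounds this for the 18 genes. None passed the fold threshold, which 8.93% of all tested genes did. At an unadjusted p under 0.05, 2 were higher and 5 lower, and DESeq2 called 0 with the threshold and 2 higher and 4 lower without it. With column totals 2 were higher and 13 lower, where the median of all genes was -0.35 against -0.05 with TMM, so the direction of most genes in AC treated cells depends on the scaling. Gpr31b and St3gal3 were higher and the 4 others lower under both. Of these, RP24-252B21.3, Gm16712 and Rgag4 overlap other genes, as given above, and the part of shared reads was not tested. The T cell and fibroblast marker sums were higher in the SjSS AC samples, by the ranges given above, and their part was not tested.

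**Figure D3:**
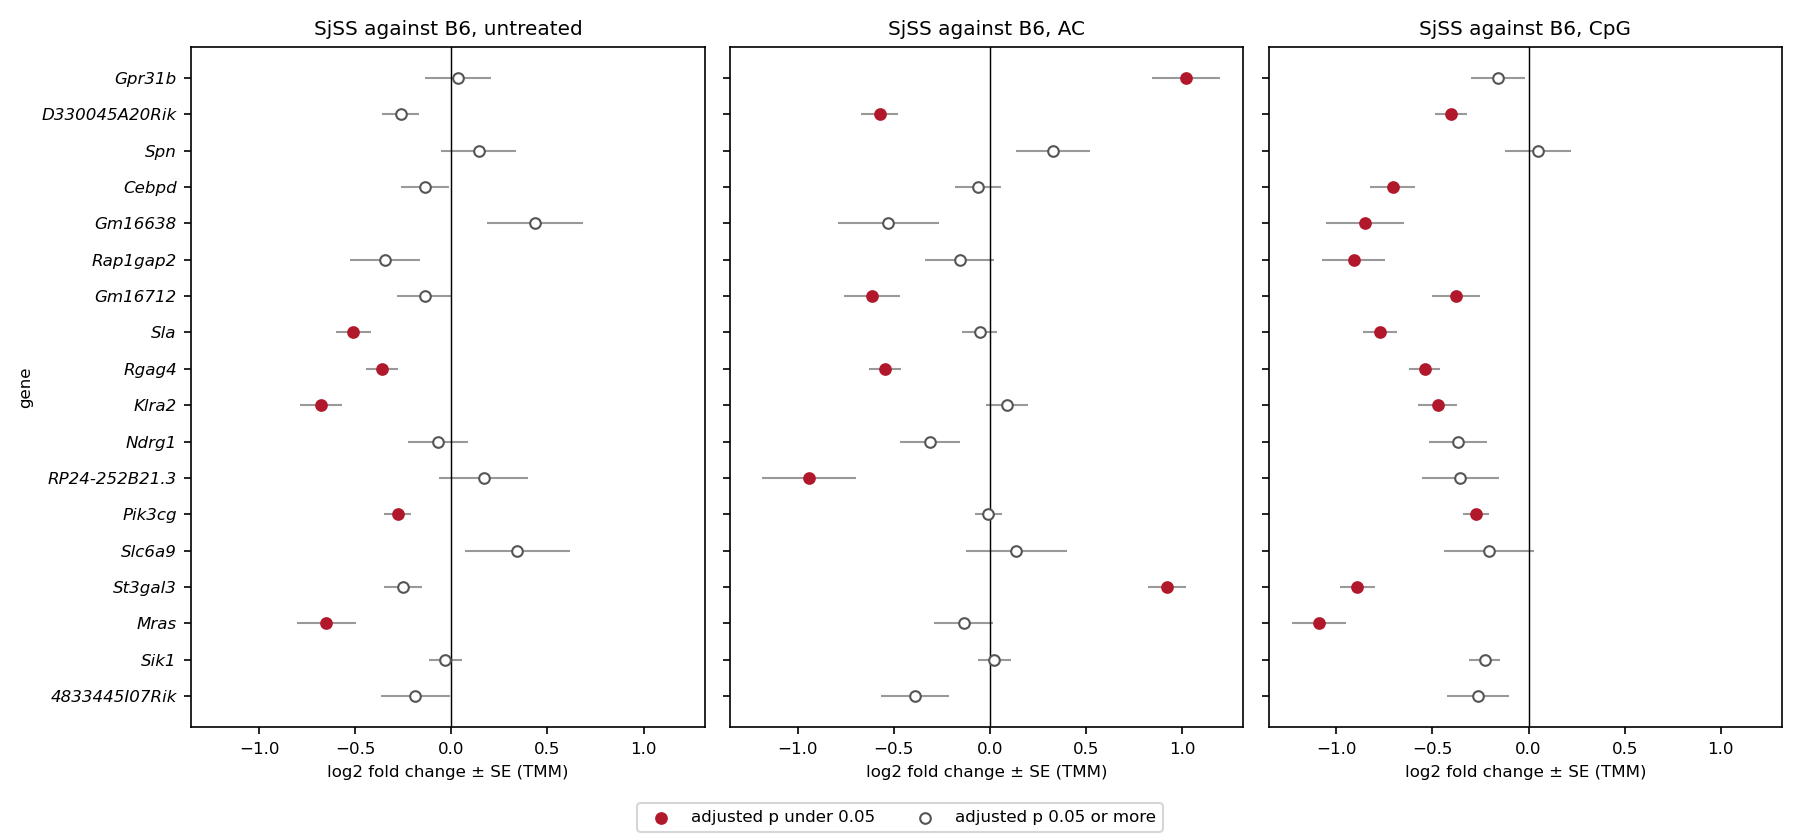
Log2 fold change of SjSS against B6 with its standard error (edgeR, TMM) for the 18 genes in untreated (left), AC treated (middle) and CpG treated (right) BMDMs; filled points have an adjusted p under 0.05. With CpG 11 filled points lie left of 0 and none right of it, and with ACs Gpr31b and St3gal3 lie right of it.

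The responses themselves were compared between strains by the interaction of strain and treatment. Since each gene had to pass the same bounds in both strains, the choice limits how far the responses could differ. The CpG response was smaller in SjSS for 16 of 18 genes (88.9%) by the fitted value. It was smaller for 45.6% of all genes tested and 58.7% of the other 346 genes raised by CpG. The median difference of the 18 genes was -0.25, against 0.03 for all genes tested and -0.12 for the other 346. At an adjusted p under 0.05 it was smaller for Gm16638 (-1.29 ± 0.32, adjusted p = 0.0226) and St3gal3 (-0.64 ± 0.14, adjusted p = 0.00876), where 2.62% of all genes had a smaller response and 3.23% a larger, and larger for 0. Of the other 346 genes raised by CpG, 14.2% had a smaller and 8.09% a larger response at that cutoff. The share called smaller among the 18 genes (11.1%) was no higher than theirs. Cebpd differed by -0.57 ± 0.17 (SE) with an adjusted p of 0.0548. With the replicate number as a block Cebpd was called as well (-0.58, adjusted p = 0.0257), and with the block within strain so were Cebpd (-0.58, adjusted p = 0.00333) and Rap1gap2 (-0.55, adjusted p = 0.00174), which made 4 smaller responses. No gene passed the fold threshold, which 0.614% of all genes did, and 6 had a smaller and 0 a larger response at an unadjusted p under 0.05. DESeq2 called 1 smaller with the threshold, Gm16638, and 3 without it. Gm16638 lost its call without B6 control replicate 2, SjSS control replicate 3, SjSS CpG replicate 1 or SjSS CpG replicate 2, at log2 differences of -1.15, -1.08, -1.28 and -1.16, and without SjSS CpG replicate 3 the count of genes with a smaller response was 4. Gm16638 overlaps Tmc3, and if the counting did not use strand, reads from shared sequence could be counted for either gene.

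The AC response differed between strains for 7 genes at an adjusted p under 0.05. It was higher in SjSS for St3gal3 (1.17 ± 0.14, adjusted p = 2.5e-06), Gpr31b (0.99 ± 0.25, adjusted p = 0.00389), Klra2 (0.77 ± 0.16, adjusted p = 0.000703), Sla (0.46 ± 0.13, adjusted p = 0.00811) and Pik3cg (0.27 ± 0.10, adjusted p = 0.0382), where 19.6% of all tested genes had a higher response. It was lower for RP24-252B21.3 (-1.11 ± 0.34, adjusted p = 0.0139) and Gm16638 (-0.97 ± 0.36, adjusted p = 0.0422), where 18.3% had a lower one. All 5 genes with a higher response had a B6 AC ratio under 1 by column totals, as had 7 of the 18 genes. The AC ceiling of the choice favours this, since it leaves a higher response in SjSS mainly to genes low in B6. None passed the fold threshold, against 7.53% of all genes, with 6 higher and 4 lower at an unadjusted p under 0.05. DESeq2 called 0 with the threshold and 6 higher and 2 lower without it. With column totals, 3 were higher (Gpr31b, Klra2 and St3gal3) and 7 lower, 2 of these past the fold threshold. The median of all genes was then -0.35 against -0.01 with TMM, and the share of all genes called with column totals is not given. The 7 lower calls therefore cannot be told apart from this general shift. Pik3cg turned to -0.07 with column totals. RP24-252B21.3 lost its call without SjSS control replicate 3, at -0.89. Gm16638 lost it without B6 control replicate 2, B6 AC replicate 2 or 3, B6 CpG replicate 3, SjSS control replicate 2 or 3, or SjSS AC replicate 1 or 3, at -0.99 to -0.74, and Pik3cg without replicate 1 of B6 control, replicate 1 or 3 of B6 AC, any SjSS control, or replicate 1 or 3 of SjSS AC, at 0.22 to 0.28. Of the other genes raised by CpG, 76.6% had a higher AC response in SjSS, with a median of 1.25 against 0.07 for the 18 genes, and the choice fixed part of this.

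**Figure D4:**
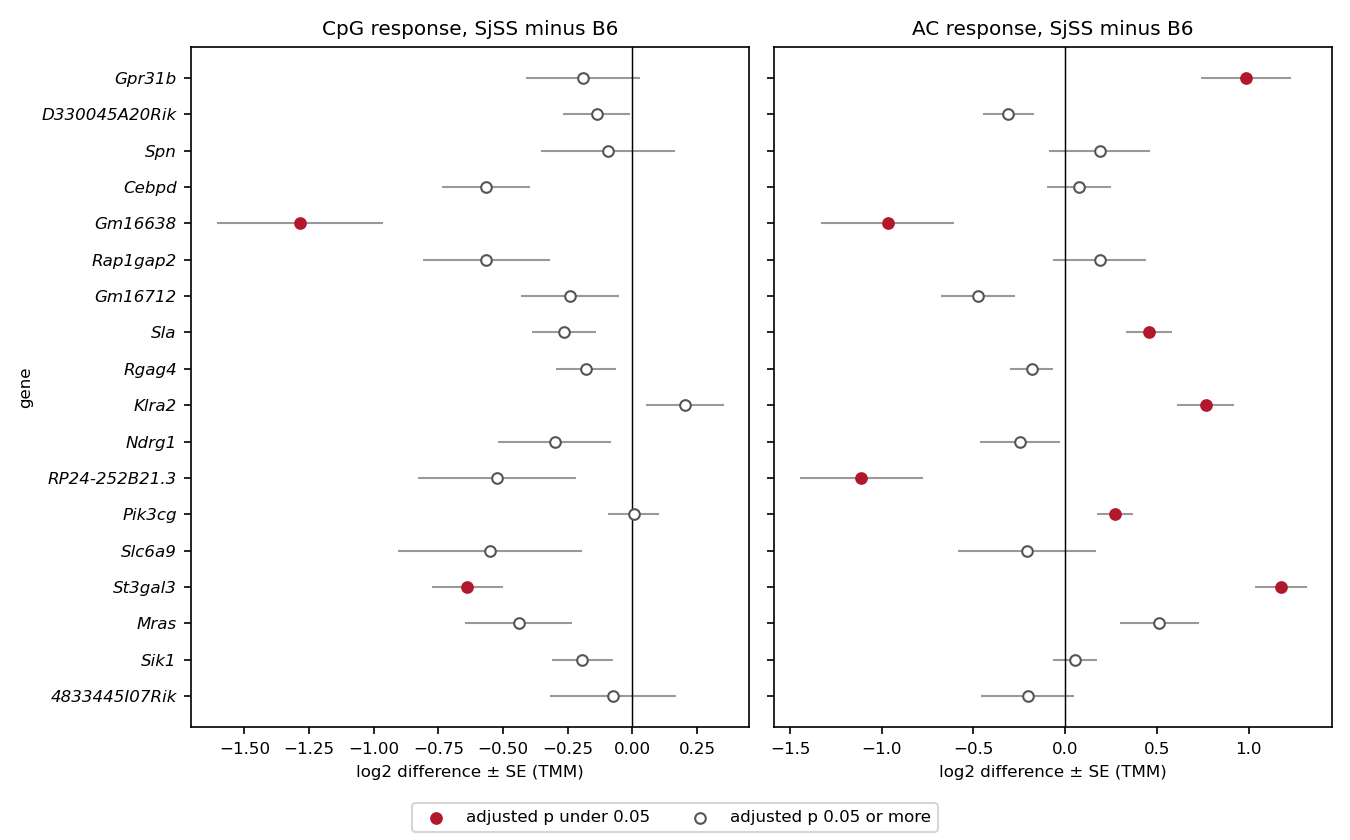
Difference of the CpG response (left) and the AC response (right) between strains, SjSS minus B6, on the log2 scale with its standard error (edgeR, TMM) for the 18 genes; filled points have an adjusted p under 0.05. The CpG differences lie mostly left of 0, with Gm16638 at -1.29 and St3gal3 at -0.64, and the AC differences on both sides.

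To place the 18 genes among known pathways, 18 lists of genes of TLR9 signalling and its targets were counted. Cebpd and Ndrg1 were the 2 genes on any list. Called here means an adjusted p under 0.05 and a log2 change over 1.3. Of all genes tested, 5.86% were called higher and 6.88% lower with CpG in B6, 4.81% and 4.45% with CpG in SjSS, 2.43% and 2.04% with ACs in B6, and 7.09% and 5.83% with ACs in SjSS. Of the 335 list genes tested, 123 were called higher and 38 lower with CpG in B6, and 104 and 19 in SjSS. With ACs 75 were called higher and 12 lower in B6, and 145 and 11 in SjSS. So ACs also raised many of the listed genes, and how many were called higher with both stimuli was not counted.

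Of the TLR9 signalling list, 28 genes were tested, and 5 were called higher and 2 lower with CpG in B6, and 2 higher and 0 lower in SjSS. Irak3, a kinase-dead brake on the pathway, differed from control by 2.49 ± 0.06 (log2, SE) in B6 and 2.74 ± 0.07 in SjSS with CpG and by 1.02 ± 0.06 and 1.96 ± 0.06 with ACs. Map3k8, the kinase Tpl2, differed by 1.97 and 1.65 with CpG and by 0.40 and 1.76 with ACs. Tlr9 itself was called lower with CpG in B6, from 40.7 to 9.99 CPM, a log2 change of -1.85 ± 0.13. In SjSS it went from 40.5 to 20.1 CPM with CpG, a change of -0.88 ± 0.12 that missed the fold threshold, and to 83.2 CPM with ACs, called at 1.45 ± 0.12. Among 17 NF-kB subunits and inhibitors, 10 were called higher with CpG in each strain, and 5 with ACs in B6 and 11 in SjSS. Nfkbiz, an inducible co-regulator of NF-kB targets, differed by 4.95 and 4.62 with CpG and by 1.26 and 2.86 with ACs in B6 and SjSS. Tnfaip3, the deubiquitinase A20, differed by 2.68 and 2.76 with CpG and by 1.47 and 3.31 with ACs.

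Genes of the lists of secreted and surface signals were called higher with each stimulus, and fewer lower in all but 1 case. With CpG in B6 and in SjSS, 8 and 8 of 14 CXC and CX3C chemokines, 6 and 5 of 12 CC chemokines, 6 and 6 of 18 IL-6 and IL-12 family genes, and 5 and 5 of 13 IL-1 family genes were called higher. With ACs these counts were 7 and 9, 7 and 9, 5 and 9, and 4 and 9. Of 28 TNF superfamily genes, 13 and 11 were called higher with CpG and 8 and 15 with ACs. Of 15 other interleukins and receptors, 3 and 3 were higher with CpG and 2 and 7 with ACs, and of 7 colony-stimulating factors and receptors 1 and 1, and 1 and 2. Of 12 co-stimulatory and antigen presentation genes, 3 and 3 were higher with CpG and 2 and 5 with ACs. Of 34 interferon-stimulated genes, 33 and 24 were higher with CpG and 23 and 34 with ACs. With CpG, 4 and 3 genes of the IL-6 and IL-12 family, 4 and 1 of the TNF superfamily and 2 and 0 of the co-stimulatory and antigen presentation list were called lower, and at most 1 of each other list named here. With ACs, lower calls took in 4 and 0 co-stimulatory and antigen presentation genes, more than the higher ones in B6, 1 and 2 genes of the IL-6 and IL-12 family and at most 1 of each other list.

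The lists that hold Cebpd and Ndrg1 come first among the rest. Of 21 AP-1, ATF, EGR and CREB factors, which include Cebpd, 5 and 5 were called higher with CpG in B6 and SjSS and 1 and 7 with ACs. Of 27 glycolysis and hypoxia genes, which include Ndrg1, 9 and 4 were higher with CpG and 1 and 3 with ACs. Of 18 SOCS and dual-specificity phosphatases, which limit cytokine and MAP kinase signals, 5 and 5 were higher with CpG and 2 and 6 with ACs. Of 27 matrix, protease and adhesion genes, 8 and 6 were higher with CpG and 4 and 8 with ACs. Of 19 prostaglandin and leukotriene genes, 4 and 5 were higher with CpG and 2 and 3 with ACs, of 19 growth factors 2 and 3, and 3 and 5, and of 11 LXR targets 1 and 1, and 1 and 2. Genes called lower with CpG in B6 and SjSS were 6 and 2 growth factors, 5 and 3 prostaglandin and leukotriene genes, 5 and 4 AP-1, ATF, EGR and CREB factors, 4 and 3 SOCS and dual-specificity phosphatases, 2 and 0 LXR targets, 1 and 1 matrix, protease and adhesion genes and 0 and 0 glycolysis and hypoxia genes. With ACs, 3 and 0 prostaglandin and leukotriene genes were called lower, and at most 2 genes of each of the other 6 lists in a strain. So in B6 treated with CpG lower calls matched or outnumbered higher ones for 4 of these 7 lists. The lists were chosen with results of these data known, and no list was tested against the others.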

How the data were processed

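RNA-seq was measured in 18 samples of BMDMs. The authors aligned reads to mm10 with STAR and quantified genes with Partek's E/M method, and the values they deposited are estimated counts per gene, not normalized. Of these values 41.12% were not whole (tolerance 1e-06), as when reads are shared among genes, and they were rounded before tests. Whether the library or the counting kept strand is not given in the sources used here. A spreadsheet had changed 23 gene symbols to dates. DESeq2 is named with version 3.13 in the submitters' processing notes. Printed coordinates are those of the deposited table, with the stop moved back by 1 base, which gives the end of the GENCODE M21 gene for 17539 genes.

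CPM by column totals chose the 18 genes. Their tests used edgeR 4.0.16 in R 4.3.3: filterByExpr kept 15789 genes, libraries were scaled by TMM, and 1 quasi-likelihood model over the 6 groups gave log2 fold changes, their standard errors (size divided by the square root of F) and Benjamini-Hochberg adjusted p-values over all genes tested. The study's call, an adjusted p under 0.05 with a log2 fold change over 1.3, was used, and the adjusted p alone beside it. For calls, shares of all genes tested are given for edgeR with TMM at these cutoffs. Counts at an unadjusted p, by DESeq2 or under other settings have no such share beside them. They are therefore not read as particular to the 18 genes. Repeating the adjusted p alone under each other setting was added after seeing the data. The p-values set a difference against the spread between samples within groups, for which the 6 groups shared 1 estimate per gene. Samples were treated as independent, though those that share a number may share a mouse. DESeq2 1.42.0 was an alternative. On simulated data, 200 genes were changed by 2 on the log2 scale. The fit recovered 200 in the strain comparison with CpG, with 4 false calls among 15430 genes. In the CpG interaction it recovered 197, with 1 false call among 15458 genes. Recovery of smaller changes, such as those called among the 18 genes, was not tested.

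The genes, the 18 pathway lists and the marker lists were chosen with earlier results of these data known. Genes were to be named if they were on a list, among the 12 with the largest CpG ratio or highest CpG level or the 8 with the lowest AC ratio, among up to 6 called in each direction of a strain comparison, within 3 places of a threshold, or on the TLR9 and NF-kB lists, and this took in all 18. Neighbours within 250 kb, genes overlapping one of the 18, Cebpa and Cebpb were named after their values were seen. Figures used Python 3.11.15 and matplotlib 3.10.9.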

Additional observations from a re-analysis of the deposited data

Results flagged for a closer look

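The tests of the difference in response between strains flagged 9 results among the 18 genes. Of all genes tested, 2.62% had a smaller and 3.23% a larger CpG response in SjSS, and 19.6% a higher and 18.3% a lower AC response. The choice of the genes limits how far these responses could differ. As given above, Gm16638, RP24-252B21.3 and Pik3cg lost a call when certain single samples were left out. For CpG, Gm16638 responded less in SjSS by -1.29 on the log2 scale and St3gal3 by -0.64. For ACs, St3gal3 responded more in SjSS by 1.17, Gpr31b by 0.99, Klra2 by 0.77, Sla by 0.46 and Pik3cg by 0.27, and RP24-252B21.3 responded less by -1.11 and Gm16638 by -0.97. St3gal3 and Gm16638 were flagged for both stimuli, St3gal3 with opposite signs. By column totals the AC values were 0.83 for St3gal3, 0.65 for Gpr31b, 0.42 for Klra2, 0.11 for Sla and -0.07 for Pik3cg, the last 2 without a call. Beyond leaving out 1 sample at a time, no test was made for single samples that stand apart in a group of 3.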

How the results depend on the processing

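Dropping the fold threshold raised the count of called genes among the 18 from 0 to 5 lower without treatment, 11 lower with CpG, 2 higher and 4 lower with ACs, 2 with a smaller CpG response, and 5 with a higher and 2 with a lower AC response. With the threshold, DESeq2 and DESeq2's size factors in edgeR each gave 1 smaller CpG response, and column totals, chosen after seeing the data, gave 2 lower AC responses. At an adjusted p under 0.05 alone, column totals gave 13 lower genes with ACs, 3 higher and 7 lower AC responses, and a fit of only the groups compared gave 1 lower AC response. By column totals, which shift the median gene with ACs in SjSS, Sik1 turned to -0.28 with ACs and to -0.29 in the AC interaction, and Pik3cg to -0.07.

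Without the fold threshold the pathway lists gave 83 lower with CpG in B6, 181 higher and 85 lower with CpG in SjSS, 164 higher and 59 lower with ACs in B6, and 220 higher and 46 lower with ACs in SjSS. Looser or stricter bounds gave 51 genes at a CpG floor of 2, 4 at a floor of 4, 5 at an AC ceiling of 1 and 37 at a ceiling of 1.5. TMM scaled totals gave 18 genes, DESeq2 size factors 16, a pseudocount of 1 gave 21 and group medians 15.

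Leaving out 1 sample at a time gave 13 to 21 genes, and 9 of the 18 stayed in every time. With the fold threshold it gave 0 to 1 smaller CpG responses, and 0 in every other comparison and direction. Without the threshold it gave 4 to 7 lower genes without treatment, 9 to 12 with CpG, 2 higher and 4 to 5 lower with ACs, 1 to 4 smaller CpG responses, and 4 to 6 higher and 0 to 3 lower AC responses. The list counts ranged from 119 to 123 higher and 36 to 40 lower with CpG in B6, 97 to 105 and 17 to 22 in SjSS, 72 to 77 and 10 to 12 with ACs in B6, and 137 to 148 and 10 to 11 in SjSS.

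To look for pairing, each sample's deviation from its group mean was taken for each gene tested, on the log2 scale. Deviations of samples with the same number correlated by 0.020 to 0.264 within a strain, over 0.1 in 9 of 18 pairs. Between strains they correlated by -0.072 to 0.016. Every pair was over 0.1 for control and CpG in B6 alone, so pairing was not shown between strains and was not uniform within them. Within each strain all 3 deviations correlated best with their own number in every pair of conditions but control and ACs in B6, where 1 of 3 did. Deviations in a group of 3 cancel out, so a positive value for the own number lowers those for the other numbers. The pattern is a hint from the data and not the design. With the replicate block there were 6 lower genes without treatment, 11 with CpG and 3 smaller CpG responses at an adjusted p under 0.05, and with the block within strain 4 smaller CpG responses. The genes gained were D330045A20Rik without treatment, Cebpd (both blocks) and Rap1gap2 (within strain) for CpG, and D330045A20Rik (-0.31) and, within strain, Mras (0.51) for the AC response, and no call was lost. Of the other single-gene values under the alternatives, 2111 kept their side of the threshold, 48 gained a call and 34 lost one. At 30688336 counts or more a sample, depth limits most the genes near 1 CPM in control.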
